A study of Zea mays with 6 samples.

Results

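The genes described here are the 3 maize genes that the deposited node table assigns to the KEGG orthology of transport inhibitor response 1 (TIR1), the auxin receptor. They are GRMZM2G135978, GRMZM2G398848 and GRMZM2G095786, 3 of 5546 listed genes, and all 3 passed the filter on low values and were tested. RNA was sequenced from nodes, which the labels take together with internodes, of field-grown maize at 28 days. The 3 WT libraries came from the inbred line B73. The 3 zmte1-2 libraries came from a dwarf line with a premature stop codon in TERMINAL EAR 1 (ZmTE1), which encodes an RNA-binding protein. The line arose in a chemical (EMS) mutagenesis, was backcrossed to B73 and is a single allele of the gene. The library titles number the nodes 1 to 3. Whether a number stands for a separate plant, a pool or a position along 1 stem is not stated, so n = 3 may count nodes rather than plants, and each SD and p-value here speaks only of the spread among these libraries. The comparison asks how the level of these receptors differs between nodes with and without functional ZmTE1.

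TIR1 and its relatives, the AFB proteins, are F-box proteins and the nuclear receptors of auxin. Each is the substrate-binding subunit of an SCF ubiquitin ligase, in which SKP1 and a cullin join the F-box protein to the ubiquitin-transferring part. Auxin sits between the receptor and an Aux/IAA repressor and holds them together, and inositol hexakisphosphate is a cofactor in the receptor. The repressor is then ubiquitinated and degraded, which frees auxin response factors (ARFs) to act on early auxin genes such as SAUR and GH3 genes. This mechanism was worked out in Arabidopsis, where auxin promotes cell division and elongation in growing stems. Among the 3 maize genes, the protein of GRMZM2G135978 is described in the table as similar to a TIR1-like protein of Setaria italica. That of GRMZM2G398848 is described as similar to a TIR1-like protein of Sorghum bicolor. GRMZM2G095786 is annotated only as uncharacterized protein LOC100383174, with a protein of the RNI-like (leucine-rich repeat) superfamily as its best Arabidopsis hit. A role in auxin perception is therefore inferred from orthology for these genes, and they are given no further gene names here.

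The 3 genes lie on different chromosomes. The table names no genome build for its coordinates. In them GRMZM2G135978 spans chromosome 8 from 126645845 to 126651380 on the minus strand, with 2 annotated transcripts. GRMZM2G398848 spans chromosome 1 from 18628753 to 18631648 on the minus strand, with 1 transcript. GRMZM2G095786 spans chromosome 9 from 150015692 to 150018334 on the plus strand, with 1 transcript. No other listed gene overlaps any of them. How reads shared between these genes, or with TIR1 relatives outside the table, were counted is not stated, so their separate levels carry that uncertainty.

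The table gives FPKM (fragments of a gene normalised for its length and for library size), and holds only genes that the authors had called different between these same libraries. The presence of the receptors in it was therefore fixed by the contrast described below, and small p-values are favoured in advance. ZmTE1 itself (GRMZM2G085113) was listed at 0.51, 1.19 and 1 FPKM in WT libraries 1 to 3 and at 0.33, 0.10 and 0.49 FPKM in zmte1-2 libraries 1 to 3, lower in every zmte1-2 library but too low for the test. Depth was not stated for any library, and the counting error of a low FPKM is therefore unknown. In correlations across tested genes, zmte1-2 library 2 stood apart from zmte1-2 libraries 1 and 3 (Pearson r 0.729 and 0.627, beside 0.936 between those libraries). WT library 1 stood apart from WT libraries 2 and 3 (0.795 and 0.838, beside 0.926), and genes are not independent replicates. Results on the receptors are therefore also given without these libraries.

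GRMZM2G135978 was the most abundant receptor in every library. It stood at 28.04, 15.53 and 20.34 FPKM in WT libraries 1 to 3 and at 8.55, 7.13 and 11.57 FPKM in zmte1-2 libraries 1 to 3. Every zmte1-2 library was below every WT library, with a gap of 3.96 FPKM between the lowest WT and the highest zmte1-2 library. WT averaged 21.3 ± 6.31 FPKM and zmte1-2 averaged 9.08 ± 2.27 FPKM (SD, n = 3), which is 42.6% of WT. On log2(FPKM + 0.5) the fold change was -1.17 (SE 0.41, 95% interval -2.13 to -0.21), and it did not pass the test used throughout (limma adjusted p = 0.0533, called under 0.05). Without zmte1-2 library 2 the log2 fold change was -1.02 (limma adjusted p = 0.0540) and without WT library 1 it was -0.96 (limma adjusted p = 0.152).

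GRMZM2G398848 was the next in WT. It stood at 11.78, 7.61 and 8.98 FPKM in WT libraries 1 to 3 and at 3.19, 1.42 and 4.93 FPKM in zmte1-2 libraries 1 to 3. The genotypes again did not overlap, and zmte1-2 library 2 was the lowest of all, 3.47-fold below the highest zmte1-2 library. WT averaged 9.46 ± 2.13 FPKM and zmte1-2 averaged 3.18 ± 1.76 FPKM (SD, n = 3), which is 33.6% of WT. This receptor fell by 1.54 on the log2 scale (SE 0.48, 95% interval -2.67 to -0.41, limma adjusted p = 0.0440). Without zmte1-2 library 2 the log2 fold change was -1.13 (limma adjusted p = 0.0351). The call was lost when any WT library or zmte1-2 library 1 was left out, with limma adjusted p-values of 0.124, 0.0632 and 0.135 without WT libraries 1 to 3 and 0.124 without zmte1-2 library 1.

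GRMZM2G095786 was the least abundant receptor in WT. It stood at 7.51, 4.50 and 4.79 FPKM in WT libraries 1 to 3 and at 0.91, 2.22 and 1.33 FPKM in zmte1-2 libraries 1 to 3. Here zmte1-2 library 2 was the highest zmte1-2 library, while for the other receptors it was the lowest, and the genotypes did not overlap. WT averaged 5.60 ± 1.66 FPKM and zmte1-2 averaged 1.49 ± 0.669 FPKM (SD, n = 3), which is 26.5% of WT. This receptor fell by 1.64 on the log2 scale (SE 0.40, 95% interval -2.58 to -0.70, limma adjusted p = 0.0273). Without zmte1-2 library 2 the log2 fold change was -1.89 (limma adjusted p = 0.00833). The call was lost without WT library 1 (limma adjusted p = 0.0873) or 3 (0.101), and without zmte1-2 library 1 (0.110) or 3 (0.0560).

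**Figure D1:**
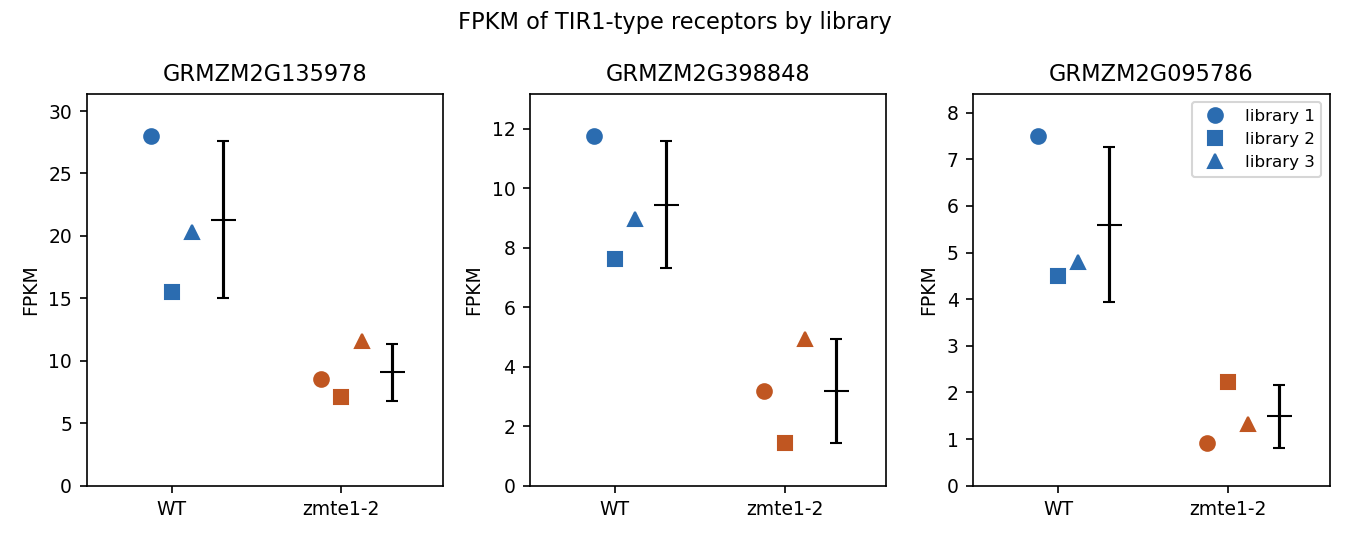
FPKM (vertical axis, from 0, with its own scale per gene) of the 3 TIR1-type receptors in WT and zmte1-2 nodes. Each symbol is 1 library, and the bar gives the mean ± SD of 3 libraries. All zmte1-2 libraries lie below all WT libraries for each receptor, and WT library 1 is the highest for each.

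Thus 2 of the 3 receptors passed as lower, none as higher, and all 3 had genotypes that did not overlap. Of the 3987 genes tested, 40.2% passed, 34.2% as lower and 6.02% as higher. All zmte1-2 libraries were below all WT libraries in 52.8% of the tested genes and above them in 11.7%. Beside this background, and in a table of genes already called, the counts over 3 receptors are no result about the receptors. The median log2 fold change of all tested genes was -1.08, with a lower quartile of -1.50, which GRMZM2G398848 and GRMZM2G095786 lay below and GRMZM2G135978 above. The receptors lay below the median by 0.09 (GRMZM2G135978), 0.46 (GRMZM2G398848) and 0.56 (GRMZM2G095786). Of the tested genes, 43.8%, 22.9% and 19.1% had a lower log2 fold change than these genes, in the same order. Their WT levels spanned the middle to the upper part of the table, above those of 80.0%, 60.1% and 45.6% of the tested genes in FPKM.

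The lower level of the receptors depends on the scaling between libraries. Median-of-ratios rescaling sets the typical listed gene to no change, and it moved the median log2 fold change of the tested genes from -1.08 to -0.09. Under it the log2 fold change was -0.05 for GRMZM2G135978 (95% interval -0.82 to 0.72), -0.49 for GRMZM2G398848 (-1.58 to 0.60) and -0.67 for GRMZM2G095786 (-1.46 to 0.12), and no receptor passed. The table holds only genes the authors called, and which scaling is the better one was not tested.

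**Figure D2:**
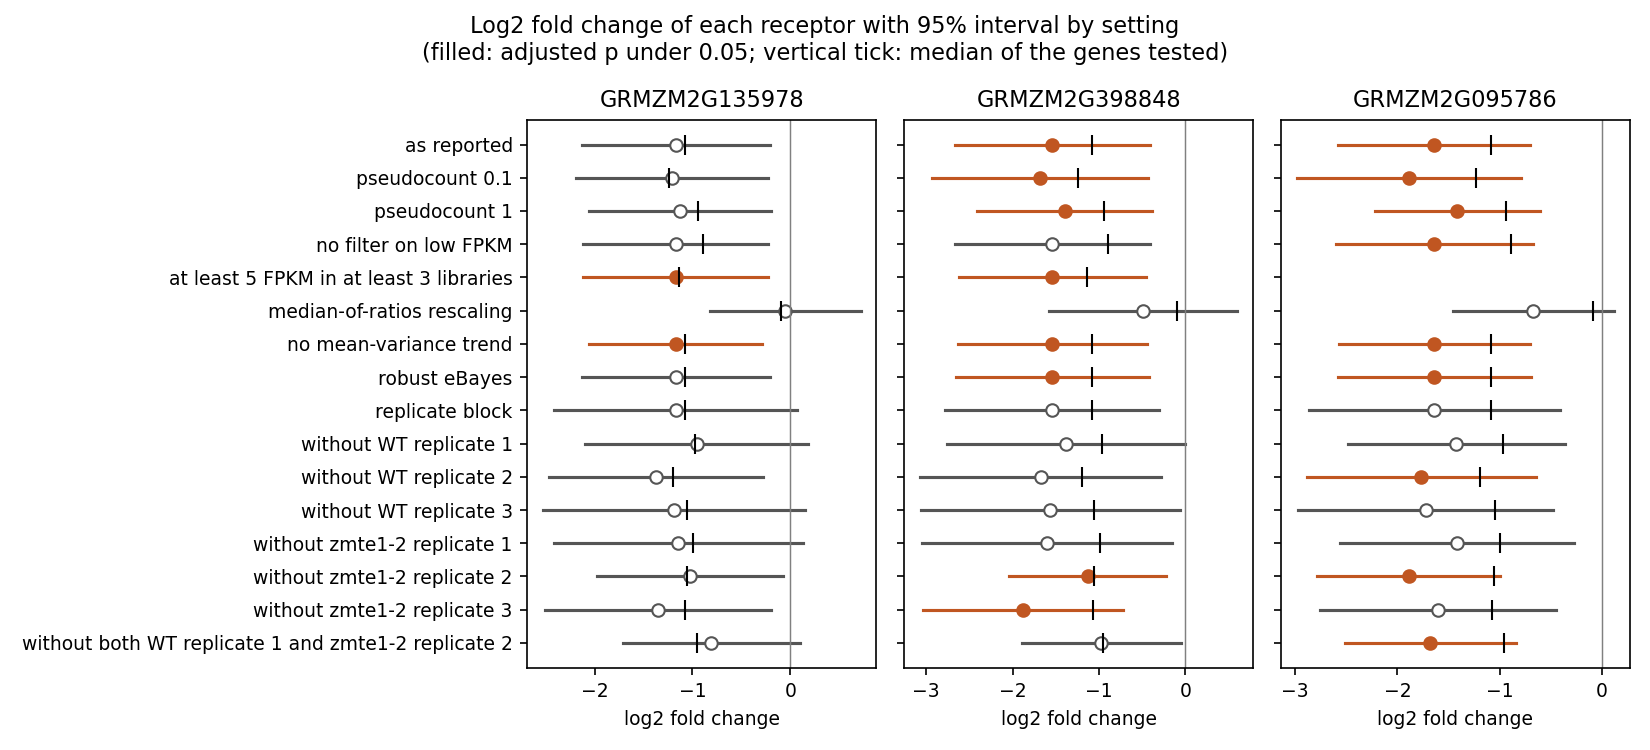
Log2 fold change (horizontal axis, zmte1-2 against WT) of each receptor under every processing setting, with its 95% interval from limma. Filled orange points passed at an adjusted p under 0.05, open grey points did not, and the black tick is the median of the genes tested under that setting. All points lie below 0, and under median-of-ratios rescaling all 3 intervals include 0. Some intervals include 0 under other settings too, such as that of GRMZM2G135978 with the replicate block (-2.42 to 0.07). GRMZM2G095786 has no point at the minimum of 5 FPKM, which it does not reach in at least 3 libraries.

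FPKM is per length, so levels are compared between the receptors here, within the uncertainty over shared reads given above. In WT the order was GRMZM2G135978, then GRMZM2G398848, then GRMZM2G095786, and the ranges of neighbours over the 3 libraries did not overlap (15.53 to 28.04, 7.61 to 11.78 and 4.50 to 7.51 FPKM). In zmte1-2 GRMZM2G135978 remained apart at 7.13 to 11.57 FPKM. The ranges of GRMZM2G398848 (1.42 to 4.93 FPKM) and GRMZM2G095786 (0.91 to 2.22 FPKM) overlapped there, since zmte1-2 library 2 had these receptors in the opposite order to the other 5 libraries. The summed FPKM of the receptors was 47.33, 27.64 and 34.11 in WT libraries 1 to 3 and 12.65, 10.77 and 17.83 in zmte1-2 libraries 1 to 3. This sum was lower in every zmte1-2 library, and its mean there was 37.8% of WT.

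The make-up of this sum was even across WT. Across zmte1-2 the share of GRMZM2G135978 was about as even (SD 1.35 points, beside 1.88 in WT). The shares of GRMZM2G398848 and GRMZM2G095786 were alike in zmte1-2 libraries 1 and 3 and differed in library 2. GRMZM2G135978 made up 59.24%, 56.19% and 59.63% of it in WT libraries 1 to 3 and 67.59%, 66.20% and 64.89% in zmte1-2 libraries 1 to 3, so its share was larger in every zmte1-2 library. GRMZM2G398848 made up 24.89%, 27.53% and 26.33% in WT and 25.22%, 13.18% and 27.65% in zmte1-2. The share in zmte1-2 library 2 was the lowest of all 6, that in library 1 lay within the WT range and that in library 3 was slightly above it. GRMZM2G095786 made up 15.87%, 16.28% and 14.04% in WT and 7.19%, 20.61% and 7.46% in zmte1-2. Its share was below WT in zmte1-2 libraries 1 and 3 and above WT in library 2. These shares are given as a description, with no test.

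**Figure D3:**
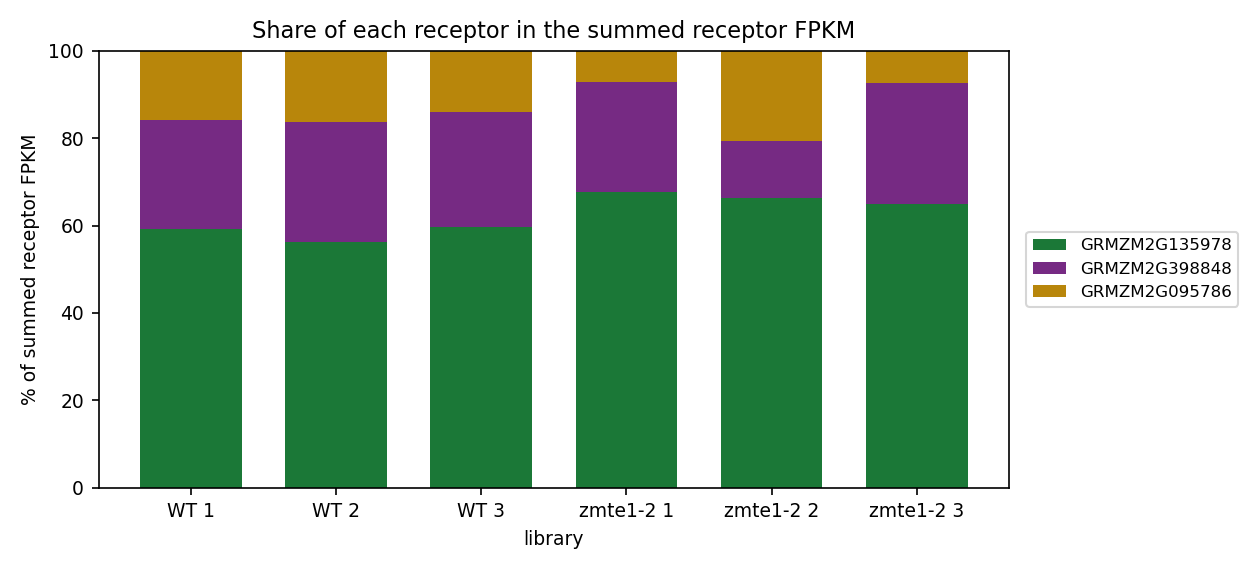
Share of each receptor (vertical axis, percent of the summed FPKM of the 3 receptors, from 0 to the whole) in each library. The 3 WT bars are alike, GRMZM2G135978 is at 64.89% to 67.59% in zmte1-2 against 56.19% to 59.63% in WT, and zmte1-2 library 2 has the largest share of GRMZM2G095786, 20.61%.

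Ratios of 2 receptors within a library depend on the scaling between libraries only through the pseudocount of 0.5. Over the 3 possible pairs, the mean log2 ratio was compared between genotypes by an exact permutation test over the libraries (two-sided, where 3 against 3 cannot go below p = 0.10). The ratio of GRMZM2G095786 to GRMZM2G135978 was -1.83 ± 0.15 in WT and -2.30 ± 0.70 in zmte1-2 (SD, n = 3 each), a difference of -0.47 (exact permutation p = 0.40, adjusted p = 0.60). The ratio of GRMZM2G135978 to GRMZM2G398848 was 1.11 ± 0.12 in WT and 1.48 ± 0.45 in zmte1-2 (SD, n = 3 each), a difference of 0.37 (exact permutation p = 0.20, adjusted p = 0.60). The ratio of GRMZM2G095786 to GRMZM2G398848 differed by -0.10 (exact permutation p = 1, adjusted p = 1). In the same order, the differences were -0.75, 0.51 and -0.25 with no pseudocount and -0.62, 0.44 and -0.18 after median-of-ratios rescaling, settings chosen after seeing the data, and the exact permutation p-values were 0.40, 0.20 and 1 in both. The mean of the last ratio covers opposite values, 0.50 in zmte1-2 library 2 and -1.39 and -1.57 in zmte1-2 libraries 1 and 3, beside -0.62 to -0.84 in WT. Without zmte1-2 library 2 this difference was -0.76, and that of GRMZM2G095786 to GRMZM2G135978 was -0.87 (exact permutation p = 0.10 for each, the smallest that 3 against 2 allows). The difference for GRMZM2G095786 to GRMZM2G398848 became 0.19 without zmte1-2 library 1 and 0.28 without zmte1-2 library 3. No difference between the receptors in their response was therefore shown, and the design is too small to show that they responded alike.

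Relative to the WT mean, on log2(FPKM + 0.5), the receptors moved together across the WT libraries. Across the zmte1-2 libraries GRMZM2G135978 and GRMZM2G398848 kept the same order, and GRMZM2G095786 had a different order. All 3 were highest in WT library 1 (0.32 to 0.43 above the WT mean) and lowest among WT in library 2 (-0.40 to -0.25). This order was shared by the median of all tested genes, at 0.19, -0.19 and 0.03 in WT libraries 1 to 3, and so is not particular to the receptors. In zmte1-2 library 1 the values were -1.23 (GRMZM2G135978), -1.41 (GRMZM2G398848) and -2.08 (GRMZM2G095786). In zmte1-2 library 2 they were -1.47, -2.35 and -1.13, and in zmte1-2 library 3 they were -0.81, -0.85 and -1.70, in the same order. The median of all tested genes was at -1.19, -0.90 and -0.91 in these libraries. GRMZM2G135978 was thus close to that median in zmte1-2 libraries 1 and 3, and below it in library 2.

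**Figure D4:**
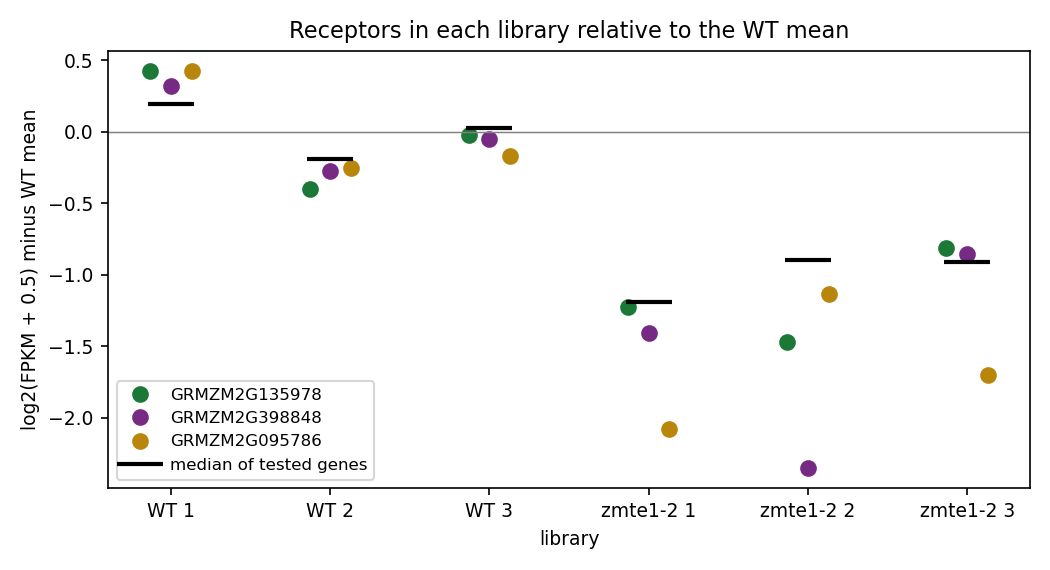
Difference from the WT mean on log2(FPKM + 0.5) (vertical axis) of each receptor in each of the 6 libraries, with the median of all tested genes as a black bar. Points are set side by side for legibility. In zmte1-2 library 2 GRMZM2G398848 is the lowest receptor at -2.35 and GRMZM2G095786 the highest at -1.13, the reverse of their order in zmte1-2 libraries 1 and 3.

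Across the 6 libraries GRMZM2G135978 and GRMZM2G398848 had the most similar profiles of the receptors, with a Pearson r of 0.960 on log2(FPKM + 0.5). GRMZM2G095786 correlated with them at 0.853 and 0.723. These are descriptions over 6 libraries that share the difference between genotypes, and 25.9% of the tested genes correlated with GRMZM2G135978 above 0.9, 19.5% with GRMZM2G398848 and 30.2% with GRMZM2G095786. Among the genes most like GRMZM2G095786 were GRMZM2G048294, described as a brassinosteroid LRR receptor kinase (r = 0.998), and GRMZM2G155954, described as IQ-domain 3 (r = 0.997). The first of that order, GRMZM2G703466, is uncharacterized (r = 0.999). Nearest to GRMZM2G398848 was GRMZM2G008764, described as protein IQ-DOMAIN 1, at 3.75, 2.33 and 2.88 FPKM in WT and 0.89, 0.27 and 1.48 FPKM in zmte1-2. It was followed by GRMZM2G369260, described as a DNA polymerase delta gene (r = 0.998), and GRMZM2G304926, described as similar to a hydroxyproline-rich glycoprotein of the alga Volvox (r = 0.997). Nearest to GRMZM2G135978 were GRMZM2G060150 and GRMZM2G066103, which have identical values and descriptions in the table and so count as 1, and GRMZM2G037308, described as a phytosulfokine receptor (r = 0.999 each). The other receptors ranked far lower in these orders, GRMZM2G398848 at 417 and GRMZM2G095786 at 1388 of 3986 genes for GRMZM2G135978.

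The proteins that the receptors act on are the Aux/IAA repressors. Of 11 listed Aux/IAA genes 10 were tested, of which 3 fell, 1 rose and 6 did not pass, with a median log2 fold change of -0.51 beside -1.08 over all tested genes. Under median-of-ratios rescaling that median turned to 0.63, with none called lower and 1 called higher. These counts are near the shares of all tested genes, 34.2% lower and 6.02% higher, or 5.17% and 13.3% under rescaling, and no difference between the Aux/IAA genes and the receptors was tested. Aux/IAA-transcription factor 5 (GRMZM5G809195) stood at 3.67, 3.34 and 2.99 FPKM in WT and 0.21, 1.34 and 0.25 FPKM in zmte1-2 and fell by 1.94 on the log2 scale (SE 0.42, limma adjusted p = 0.0215, and 0.133 under rescaling). GRMZM2G159285 stood at 33.55, 44.36 and 45.62 FPKM in WT and 91.73, 111.80 and 82.53 FPKM in zmte1-2 and rose by 1.20 on the log2 scale (SE 0.38, limma adjusted p = 0.0442). The 2 most abundant members did not pass. GRMZM2G115357 was at 650.16 FPKM in zmte1-2 library 2 and at 61.15 to 158.09 FPKM in the other 5 libraries. GRMZM2G079200 was higher in every zmte1-2 library (76.63 to 184.18 FPKM) than in any WT library (19.75 to 73.85 FPKM, limma adjusted p = 0.0832). The summed FPKM of the 11 genes was 309.96 to 384.18 in WT and 395.18 to 919.87 in zmte1-2. Its highest value, in zmte1-2 library 2, includes the 650.16 FPKM of GRMZM2G115357, which did not pass. In zmte1-2 library 3, where the sum was 395.18, that gene was at 61.15 FPKM, below every WT library.

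Auxin response factors, which the Aux/IAA proteins hold in check, had 7 listed genes. Of the 5 tested 4 fell, beside 34.2% of all tested genes, and 2 under rescaling, beside 5.17%. Both that passed under rescaling, GRMZM2G034840 and GRMZM2G086949, had reached 1 FPKM in WT alone and so entered the test through the genotype where they are high, which leaves the count no support for the family. GRMZM2G034840, described as auxin response factor 4, stood at 4.65, 4.57 and 5.05 FPKM in WT and 0.93, 0.51 and 0.84 FPKM in zmte1-2 and fell by 2.08 on the log2 scale (SE 0.30, limma adjusted p = 0.0114). GRMZM2G475882, described as auxin response factor 8, stood at 24.75 to 35.32 FPKM in WT and 6.52 to 15.97 FPKM in zmte1-2 and fell by 1.58 on the log2 scale (SE 0.45, limma adjusted p = 0.0364, and 0.528 under rescaling). GRMZM2G086949, described as auxin response factor 5, was near 1 FPKM in WT (1.21 to 1.26) and at 0.14 to 0.19 FPKM in zmte1-2. GRMZM2G317900, described as auxin response factor 7, did not pass, at 9.87 to 22.37 FPKM in WT and 17.41 to 56.34 FPKM in zmte1-2.

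Among early auxin genes, 20 SAUR genes were tested of 26 listed, and 8 fell, 1 rose and 11 did not pass. These counts are near the shares of all tested genes, 34.2% lower and 6.02% higher. Of the 8 that fell 1 had reached 1 FPKM in WT alone. Under rescaling 2 fell and 1 rose, beside 5.17% and 13.3%. Auxin-induced protein 15A (GRMZM2G420812) stood at 56.20, 22.28 and 33.57 FPKM in WT and 10.11, 10.94 and 4.39 FPKM in zmte1-2. GRMZM2G015049 stood at 51.45, 20.07 and 22.97 FPKM in WT and 3, 8.44 and 0.88 FPKM in zmte1-2 and fell by 3.06 on the log2 scale (SE 0.74, limma adjusted p = 0.0273). As with the receptors and the median of all tested genes, WT library 1 was the highest library for both. The SAUR genes with the smallest p, GRMZM2G442000 (5.81 to 8.18 FPKM in WT and 0.48 to 1.44 FPKM in zmte1-2) and GRMZM2G144421 (4.36 to 9.51 FPKM in WT and 0.40 to 1.30 FPKM in zmte1-2), fell by 2.28 and by 2.47 on the log2 scale. The tested GH3 gene, GRMZM2G378106, described as an indole-3-acetic acid amido synthetase, which conjugates auxin to amino acids, did not pass. It was at 66.67 FPKM in zmte1-2 library 2 and at 3.23 to 12.16 FPKM in the other 5 libraries.

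Of 3 influx carriers of the AUX1/LAX type, which bring auxin into the cell, 2 fell and 1 did not pass (median log2 fold change -1.46), beside 34.2% of all tested genes called lower. Under rescaling none passed (median -0.38), and counts over 3 genes are no result about the family. Auxin import carrier 1 (GRMZM2G129413) stood at 29.49, 24.55 and 43.10 FPKM in WT and 8.62, 2.31 and 14.79 FPKM in zmte1-2. GRMZM2G045057, described as a putative auxin transporter-like protein, stood at 3.12 to 3.27 FPKM in WT and 1.22 to 1.88 FPKM in zmte1-2. Its log2 fold change was -0.93 (SE 0.30, limma adjusted p = 0.0475), and 0.0047 under median-of-ratios rescaling. GRMZM2G149481 stood at 11.02, 11.31 and 15.27 FPKM in WT and 6.42, 1.81 and 5.95 FPKM in zmte1-2 (limma adjusted p = 0.0554). Library 2 was the lowest zmte1-2 library for GRMZM2G129413 and GRMZM2G149481, as it was for GRMZM2G398848 and GRMZM2G135978. For the remaining carrier, GRMZM2G045057, library 2 was the highest zmte1-2 library (1.22, 1.88 and 1.27 FPKM in libraries 1 to 3), as it was for GRMZM2G095786. The carriers thus share no single order with the receptors.

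**Figure D5:**
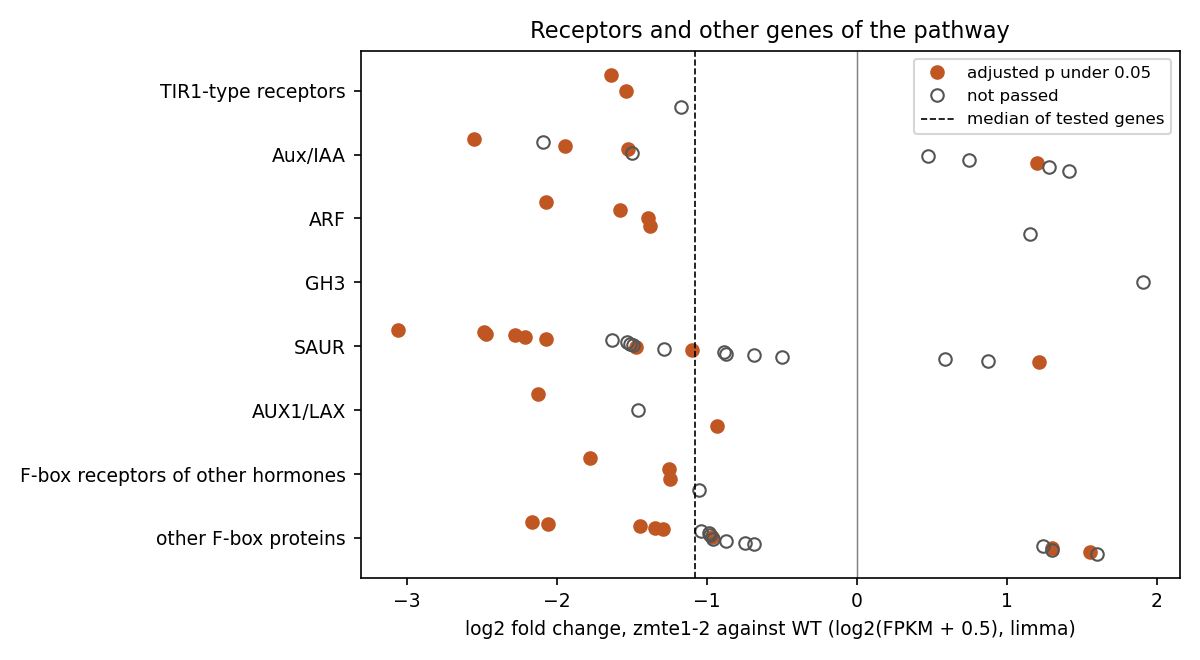
Log2 fold change (horizontal axis, zmte1-2 against WT on log2(FPKM + 0.5)) of every tested gene of the receptors and of 7 other lists. Filled orange points passed limma at an adjusted p under 0.05, open points did not, and the dashed line is the median of all tested genes, -1.08. Receptors lie from -1.64 to -1.17. AUX1/LAX genes (-2.13 to -0.93) and F-box genes of the GID2 orthology (-1.78 to -1.05) also lie wholly below 0, so this is not particular to the receptors. Aux/IAA, ARF, SAUR and other F-box genes lie on both sides of 0, and the GH3 gene lies above it.

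Other F-box proteins belong to the same protein class as the receptors. No listed gene carried the orthology of COI1 or of EBF, the F-box proteins of jasmonate and ethylene signalling. The orthology of GID2, the F-box protein of gibberellin signalling, was carried by 4 tested genes. Of these 3 fell, beside 34.2% of all tested genes, with a median log2 fold change of -1.25 beside -1.08. Under rescaling none fell (median -0.14), beside 5.17% of all tested genes. Of these 4 genes 2 are described as GID2, of which 1 fell without rescaling. GRMZM2G040278, described as GID2, stood at 5.84, 3.29 and 6.21 FPKM in WT and 1.92, 0.51 and 1.14 FPKM in zmte1-2 and fell by 1.78 on the log2 scale (SE 0.44, limma adjusted p = 0.0287). GRMZM2G095397, also described as GID2, stood at 6.65, 3.88 and 5.47 FPKM in WT and 3.21, 1.56 and 2.25 FPKM in zmte1-2 and did not pass (limma adjusted p = 0.0603). The other genes that fell were GRMZM2G411084, described as MFP1 attachment factor 1 (23.96 to 35.93 FPKM in WT and 10.11 to 15.82 FPKM in zmte1-2), and GRMZM2G309970, which is uncharacterized (9.11 to 13.67 FPKM in WT and 4.01 to 5.04 FPKM in zmte1-2). Of 18 other tested F-box genes 6 fell, 2 rose and 10 did not pass, near the shares of all tested genes (34.2% lower and 6.02% higher). Of the 6 that fell 2 had reached 1 FPKM in WT alone. Under rescaling 0 fell and 4 rose, beside 5.17% and 13.3%. The most abundant of them were GRMZM2G014022, at 32.72 to 53.17 FPKM in WT and 64.73 to 187.43 FPKM in zmte1-2, and Tubby-like F-box protein 6 (GRMZM2G176340), at 26.39 to 44.71 FPKM in WT and 11.88 to 15.23 FPKM in zmte1-2.

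The partners of the receptors in the SCF ligase were poorly covered by the table. Of 18 listed genes with an orthology of SKP1, cullin 1, RBX1 or CAND1, 14 were tested. Under rescaling 3 of them fell and 3 rose, beside 5.17% and 13.3% of all tested genes. Without it 8 fell and 2 rose, beside 34.2% and 6.02%, and 5 of those that fell had reached 1 FPKM in WT alone. None of the 14 is described as SKP1, a cullin or a RING-box protein, and 7 of the 8 that fell are described as NAC domain transcription factors. These include secondary wall NAC transcription factor 7 (GRMZM2G041668, 4.32 to 4.79 FPKM in WT and 0.21 to 1.06 FPKM in zmte1-2), so the counts do not describe the ligase. The 3 genes described as SKP1-like were too low to test. Both listed genes of SCF activation, described as COP9 signalosome subunit 7, were too low as well, and no listed gene was described as a TOPLESS co-repressor. Of the inositol phosphate kinase list 1 gene was tested, GRMZM2G092718, which is described as a heavy metal-associated protein and did not pass (3.06 to 56.40 FPKM in WT and 1.10 to 19.65 FPKM in zmte1-2).

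In bulk nodes, fewer cells of a type that expresses a receptor and less receptor RNA per cell cannot be told apart. KNOTTED1 (KN1, GRMZM2G017087), a homeobox gene of meristems and stems, was present at 142.66, 75.29 and 108.02 FPKM in WT and 35.33, 81.65 and 16.97 FPKM in zmte1-2. Its levels overlapped between genotypes and did not pass (limma adjusted p = 0.0756). Leaf photosynthetic markers were also lower in zmte1-2. The table lists 21 light-harvesting antenna genes, of which GRMZM2G018627 and GRMZM2G414192 share coordinates and values and count as 1 here. Of these 20 genes 17 had all zmte1-2 libraries below all WT libraries, beside 52.8% of all tested genes, and 13 of 18 tested fell, beside 34.2%. Of those 13, 1 had reached 1 FPKM in WT alone, and none passed under rescaling. None was at 0 in every library and 1 was at 0 in every zmte1-2 library, while no gene of the Rubisco small subunit was listed. Their summed FPKM was 856.40, 213.59 and 440.80 in WT libraries 1 to 3 and 102.70, 148.96 and 114.67 in zmte1-2 libraries 1 to 3. WT library 1 was highest, then 3, then 2, which is also the order within WT of each receptor and of the median of all tested genes. Within zmte1-2, library 2 had the highest sum, and it was the lowest library for GRMZM2G135978 and GRMZM2G398848 and the highest for GRMZM2G095786. Of 4 tested genes of lignified xylem (laccases and a secondary wall cellulose synthase) 1 fell and none rose, beside 34.2% and 6.02% of all tested genes. The 3 that did not pass had all zmte1-2 libraries above all WT libraries, beside 11.7% of all tested genes. Under rescaling none fell and 3 rose, beside 5.17% and 13.3%. Their list summed to 92.91 to 143.41 FPKM in WT and 152.24 to 260.95 FPKM in zmte1-2. The part of these markers in the receptor result was not tested.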

How the data were processed

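The authors deposited 1 table of 5546 genes with the FPKM of each library, a value normalised for gene length and library size, and the authors' mean FPKM of each genotype. The table holds genes the authors called, at an absolute log2 ratio of at least 1. No source names the aligner, the counting method, its use of strand, the genome build or the authors' test. Columns of the authors' own log2 ratios and p-values, between genotypes and between single libraries, were not used. Labels and Methods name different RNA extraction reagents. The labels number the nodes 1 to 3, and the numbers were taken as replicates, although they may be node positions and not plants. The mutant columns carry an older name of the line and were matched by genotype and number.

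Values were transformed to log2(FPKM + 0.5) and fitted with limma (version 3.58.1, under R 4.3.3), using lmFit and a trended eBayes with two-sided tests. At least 3 libraries had to reach 1 FPKM, which 3987 genes did. A call required an adjusted p under 0.05, by Benjamini and Hochberg across these genes. The other 1559 genes were not tested. Fold changes on this scale understate the change of weakly expressed genes. Without depths, counting intervals could not be computed. The script was tested on simulated data.

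The receptors were taken by orthology, and the pathway lists by orthology or protein description. The members and lists were chosen with earlier results of these data known. Named genes were all receptors, in each list every tested member where there were at most 4 and otherwise the 2 most abundant and the 2 with the smallest p, in marker and general F-box lists the 2 most abundant, and the 3 genes most correlated with each receptor, of which a part is named. The alternatives were pseudocounts of 0.1 and 1, no filter and a minimum of 5 FPKM, rescaling by the median of ratios, an untrended and a robust eBayes, the replicate block and libraries left out. RefSeq held a record for 1 of the 3 receptors, used for its name only.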

Additional observations from a re-analysis of the deposited data

How the results depend on the processing

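The 3 receptors had a negative log2 fold change under every alternative run for them. GRMZM2G398848 did not pass without the FPKM filter (-1.54, adjusted p = 0.0523), and GRMZM2G135978 passed at a minimum of 5 FPKM (-1.17, adjusted p = 0.0499) and without the mean-variance trend (-1.17, adjusted p = 0.0452). Under median-of-ratios rescaling GRMZM2G095786 was at -0.67 (adjusted p = 0.214) and GRMZM2G398848 at -0.49 (adjusted p = 0.542), by limma in each case. With 1 library left out, the log2 fold change ranged from -1.89 to -1.42 (GRMZM2G095786), from -1.37 to -0.96 (GRMZM2G135978) and from -1.88 to -1.13 (GRMZM2G398848). GRMZM2G095786 passed only without WT library 2 or zmte1-2 library 2, GRMZM2G398848 only without zmte1-2 library 2 or 3, and GRMZM2G135978 in none. Without both WT library 1 and zmte1-2 library 2, GRMZM2G095786 passed (-1.68, adjusted p = 0.0124) and GRMZM2G398848 did not (-0.97, adjusted p = 0.0613).

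Of all tested genes 1603 were called, 1363 lower and 240 higher. The count was 960 at a minimum of 5 FPKM, where fewer genes are tested, 738 under median-of-ratios rescaling (206 lower and 532 higher), and from 2 to 2754 with 1 library left out (leaving out zmte1-2 library 1 gave 2, WT library 3 gave 3, WT library 1 gave 158, zmte1-2 library 3 gave 775 and zmte1-2 library 2 gave 2754). It was 2543 without both WT library 1 and zmte1-2 library 2. Called lower genes of the lists of Aux/IAA, ARF, GH3, SAUR and AUX1/LAX genes together were 17, and became 9 at a minimum of 5 FPKM, 4 under rescaling and from 0 to 25 with 1 library left out. The count of 0 arose without WT library 3 and without zmte1-2 library 1, where 1432 and 1467 genes had an unadjusted p under 0.05 by limma. The causes were not tested.

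Deviations of same-numbered libraries from their genotype mean correlated at -0.305, -0.398 and 0.406, and those of differently numbered libraries at -0.526 to 0.517. Deviations within a group of 3 are not free of one another, so these values cannot settle whether the numbers pair the libraries. With the number as a block, GRMZM2G095786 (-1.64, adjusted p = 0.0799) and GRMZM2G398848 (-1.54, adjusted p = 0.0881) did not pass, and 2 genes were called in all and 0 in those lists, with 1880 genes at an unadjusted p under 0.05 by limma.

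The within-library ratio of GRMZM2G095786 to GRMZM2G398848 ranged from -0.76 to 0.28 with 1 library left out, turning positive without zmte1-2 library 1 (0.19) or 3 (0.28). Among other named genes, the influx carrier GRMZM2G045057 was at 0.0047 under rescaling, and the Aux/IAA gene GRMZM2G115357 turned from 0.47 to -0.51 without zmte1-2 library 2 (range -0.51 to 1.19 with 1 library left out) and to -0.31 without both WT library 1 and zmte1-2 library 2.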
